A study of Mus musculus with 12 samples.

Results

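Pancreas of C57BL6/J mice (J, from Jackson) was compared with pancreas of C57BL6/NHsd mice (NHsd, from Harlan) in chronic pancreatitis induced by cerulein. The comparison rests on 6 of the 12 arrays of the study, 3 titled Jackson mice and 3 titled Harlan mice, all treated with cerulein. Every array is a separate mouse of 8 weeks, and the other 6 arrays are saline-injected controls, 3 of each substrain. The controls are labelled female, while the labels give no sex for the cerulein mice and no dose or duration of cerulein. Both substrains are inbred and descend from C57BL/6, so that a difference between them belongs to the supplier's colony as well as to its genotype. The 12 pancreata were measured on Affymetrix mouse expression arrays, and of 18194 genes on the array 8505 were tested.

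Cerulein is an analogue of cholecystokinin, the gut hormone that makes acinar cells secrete digestive enzymes. Repeated excess stimulation injures acinar cells, and the lasting injury draws in macrophages, activates stellate cells that lay down collagen, and turns acinar cells into duct-like cells. C57BL6/J mice carry a deletion in Nnt, the gene of a mitochondrial enzyme that makes NADPH, and sublines of the N lineage carry the intact gene. Interferon-stimulated genes, which recur below, are a common set of antiviral genes that cells switch on together when interferon binds its receptor.

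The tissue matched its label: 22 genes of digestive enzymes and granule proteins averaged between log2 14.14 and 14.51 on each of the 6 cerulein arrays. One array stood apart. Over the kept probe sets, J cerulein replicate 1 correlated at 0.956 on average with the other J cerulein arrays, while each NHsd cerulein array correlated with its group at 0.983 to 0.985. Its 12 poly-A spike-in probe sets averaged log2 8.67, against 7.13 to 7.36 on the other 5 cerulein arrays, and limma's array weights gave it 0.151, the lowest of the 12. The Gapdh signal was 0.83 log2 higher at the 3′ than at the 5′ probe set on this array, within the range of 0.62 to 1.0 on the other 5. Calls and list medians are therefore given with and without J cerulein replicate 1.

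Limma called 14 of the 8505 genes higher in J and 5 lower after cerulein at an adjusted p below 0.05, or 0.165% and 0.0588% of the genes tested. By measured means 18 of these 19 genes differed at least 2-fold. For Ifit1 and Itih4, with 1 group wholly under log2 4, the lower bound against log2 4 was 1.76- and 1.65-fold. On each of the 19 every J array lay on the same side of every NHsd array. Over all genes, the 3 J arrays lay above the 3 NHsd arrays for 675 genes (7.94%) and below them for 373 (4.39%). At an unadjusted p below 0.05 limma had 549 genes higher in J (6.46%) and 251 lower (2.95%). The median gene differed by 0.05 log2 and the median standard error (SE) was 0.20. The share of higher calls depended on the scaling, with 12 higher and 10 lower once the medians of the arrays were made equal, and 13 and 10 after quantile normalization.

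Without J cerulein replicate 1, limma called 4 genes higher in J (0.047%) and 3 lower (0.0353%), or 0.0823% in all, and 455 genes (5.35%) were higher and 159 (1.87%) lower at an unadjusted p below 0.05. Mmp7, Ifit1, Cd209f, Nnt, Wdfy1 and Itih4 were called both ways, and Phlda3 was called only without that array. All 19 genes kept their sign and an unadjusted p below 0.05. The number of calls also moved when another cerulein array was left out: without NHsd cerulein replicate 1 there were 2 higher and 3 lower, without NHsd cerulein replicate 2 there were 5 and 6, and without NHsd cerulein replicate 3 there were 82 and 7. Leaving out J cerulein replicate 2 gave 10 and 5, J cerulein replicate 3 gave 15 and 5, and any 1 saline array, which enters only the estimate of the spread, gave 5 to 6 higher and 3 to 6 lower. Mmp7, Ifit1, Nnt, Wdfy1 and Itih4 were called in all 6 fits that left out 1 cerulein array. In a fit on the 6 cerulein arrays alone limma called 0 genes in either direction, with 410 higher and 151 lower at an unadjusted p below 0.05 and a lowest adjusted p of 0.107.

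**Figure D1:**
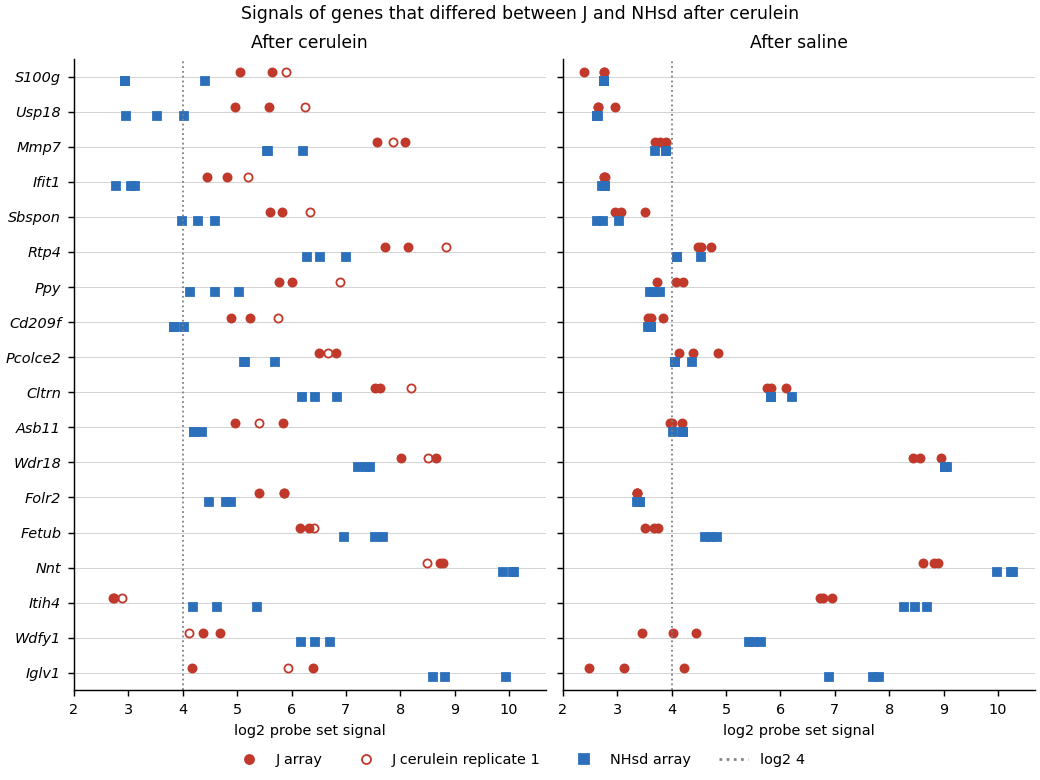
Log2 probe set signal (horizontal axis) of 18 of the 19 genes called in J against NHsd after cerulein, on the 6 cerulein arrays (left) and the 6 saline arrays (right). Red circles are J arrays, the open circle is J cerulein replicate 1, blue squares are NHsd arrays and the dotted line is log2 4. In every row on the left all J points lie to 1 side of all NHsd points, and on the right this holds in the same direction only for the 5 genes lower in J.

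Mmp7, the gene of matrilysin, a secreted protease made by epithelial cells and known in pancreatic metaplasia, had the firmest difference. Its log2 signals were 7.87, 8.08 and 7.57 on the J cerulein arrays and 5.56, 6.22 and 5.55 on the NHsd cerulein arrays. The lowest J signal thus lay well above the highest NHsd signal, and J cerulein replicate 1 lay between the other J arrays. The difference was 2.06 log2 (SE 0.20), or 4.18-fold (limma, adjusted p = 0.00116), and 2.05 (SE 0.22) without that array (adjusted p = 0.00455). On saline arrays Mmp7 lay between log2 3.70 and 3.89 in both substrains, under log2 4, where signals are near the floor of the array, so that a saline difference could not be measured. The substrain difference after cerulein exceeded that fitted after saline by 2.10 (SE 0.28), a size that is inexact for that reason, and Mmp7 was the only gene of 8505 (0.0118%) for which limma called this interaction (adjusted p = 0.0492). When 1 of the 12 arrays was left out, 0 to 5 genes were called for the interaction, and 0 without J cerulein replicate 1.

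Of 19 tested matrix enzymes and inhibitors Mmp7 alone was called, and the median of the list was 0.03, or 0.31 without J cerulein replicate 1. Timp1, an inhibitor of these proteases, had a difference of 0.46 (SE 0.22, adjusted p = 0.55). Mmp14, a membrane-bound protease of fibroblasts, had one of -0.33 (SE 0.36), which was 0.20 without that array. Neither difference was large beside its SE.

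Interferon-stimulated genes were the list with the highest median among the lists of at least 10 tested genes. The array holds 58 genes of this list, and 41 were tested. On all 6 cerulein arrays 10 of the 58, Irf7, Mx1, Mx2 and Stat2 among them, lay under log2 4. The counts below cover the tested members only. Of 41 tested members 40 had a positive difference, where 57.5% of all genes did, and the median was 0.68 log2 against 0.05 over all genes. Limma called Ifit1, Usp18 and Rtp4 higher in J. At an unadjusted p below 0.05, 24 members were higher (6.46% of all genes) and 0 lower (2.95%). For 21 members the 3 J arrays lay above the 3 NHsd arrays, where 7.94% of all genes did so. The same 41 genes had a median difference of 0.02 after saline, with 2 higher at an unadjusted p below 0.05, where 4.8% of all genes were higher and 1.62% lower. Without J cerulein replicate 1 the median was 0.73 and 40 members had a positive difference (58.1% of all genes). Then 26 passed the unadjusted threshold on the higher side (5.35% of all genes), but Ifit1 alone remained called. With equal medians or quantile normalization the median was 0.61 or 0.62.

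Ifit1, whose protein binds viral RNA that lacks the host's cap methylation, was at log2 5.20, 4.81 and 4.44 on the J cerulein arrays and at 2.78, 3.05 and 3.12 on the NHsd ones. All NHsd values lay under log2 4 and all J values above it. Ifit1 was at least 1.76-fold higher in J, the J mean of 4.82 against log2 4 (measured NHsd mean 2.98; limma, adjusted p = 0.00116, and 0.00455 without J cerulein replicate 1). On the 6 saline arrays it lay between 2.72 and 2.78. No interaction size is given, since all NHsd and saline values are under log2 4.

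Usp18, a protease that removes the ubiquitin-like protein ISG15 and restrains interferon receptor signalling, was at log2 6.24, 5.58 and 4.96 in J and 2.95, 3.53 and 4.02 in NHsd after cerulein. The difference was 2.10 (SE 0.31; limma, adjusted p = 0.016), and its size is inexact because the NHsd mean of 3.50 lies under log2 4. Rtp4, a chaperone of membrane receptors, was at 8.85, 8.15 and 7.72 in J and 6.28, 6.53 and 7.0 in NHsd, a difference of 1.64 (SE 0.27, adjusted p = 0.0326). In both genes J cerulein replicate 1 was the highest array, and neither was called without it: Usp18 then differed by 1.77 (adjusted p = 0.0561) and Rtp4 by 1.33 (adjusted p = 0.0759).

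Among members that were not called, Samd9l differed by 2.08 (SE 0.54), with J arrays at log2 6.10, 6.25 and 6.08 and NHsd arrays at 3.21, 3.07 and 5.90. Here NHsd cerulein replicate 3 was close to the J arrays and the other NHsd arrays were far below. Ifi27l2a differed by 1.96 (SE 0.42, adjusted p = 0.129), Phf11d by 1.36 (SE 0.25, adjusted p = 0.0541), Xaf1 by 1.20 (SE 0.25) and Irf9, a subunit of the transcription factor that interferon activates, by 0.99 (SE 0.21, adjusted p = 0.129). At the other end of the list, Gbp2 had a difference of -0.16 (SE 0.35) and Gbp6, another guanylate-binding protein gene, one of 0.19 (SE 0.43).

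The NHsd arrays were not alike for these genes. NHsd cerulein replicate 3 was the highest NHsd array for 36 of the 41 genes, and the list mean was log2 5.12, 5.22 and 5.87 on the NHsd arrays against 6.30, 6.38 and 5.94 on the J arrays. The third array of each substrain therefore differed by little. Without NHsd cerulein replicate 3 the median difference was 0.91 and 12 members were called, of 82 genes called higher among all 8505 tested. Without J cerulein replicate 3 the median difference was 0.82 and 6 members were called, of 15 genes called higher.

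**Figure D2:**
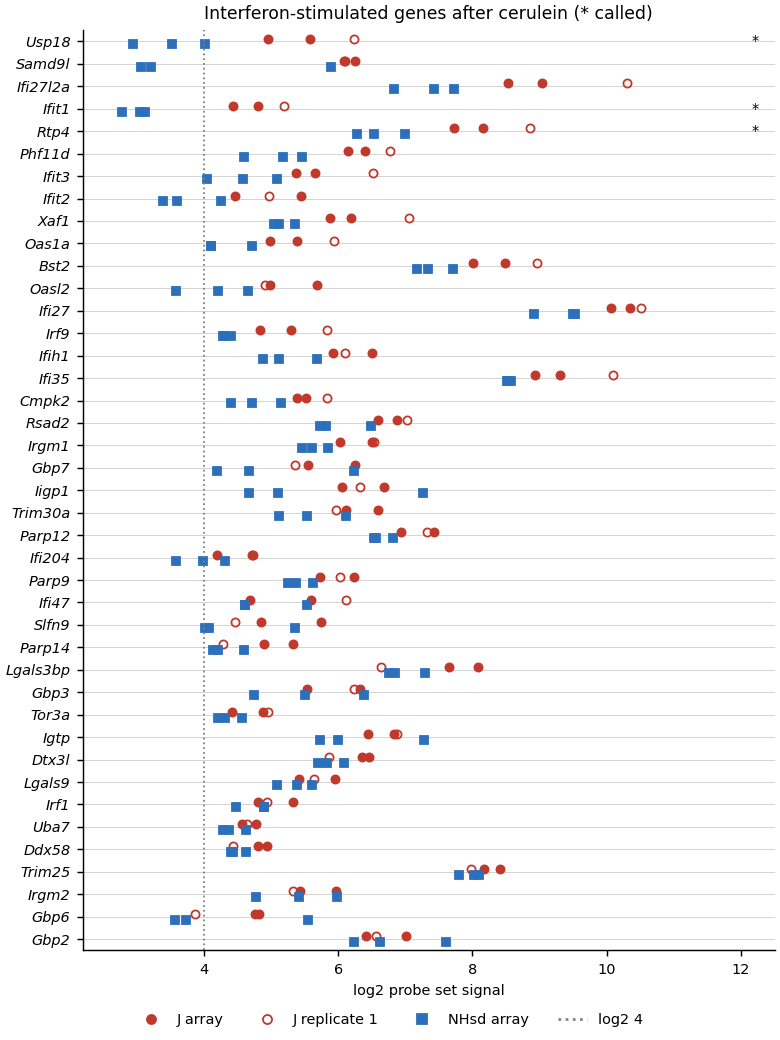
Log2 probe set signal (horizontal axis) of the 41 tested interferon-stimulated genes on the 6 cerulein arrays, ordered by the difference between the substrain means. Red circles are J arrays, open circles J replicate 1, blue squares NHsd arrays, the dotted line is log2 4 and an asterisk marks a called gene. The red points lie to the right of the blue ones in 21 genes, mainly the upper ones, and in many rows 1 blue point, which for 36 genes is NHsd replicate 3, lies nearest to the red ones.

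Interferon acts on many of these genes through a promoter element, the interferon-stimulated response element, whose core is searched here as GAAA, 2 bases of any kind and GAAA again, on both strands (TTTC on the opposite one), overlapping matches included. In RefSeq promoter windows of 300 bases (250 before to 50 after the start; build GRCm38.p6) 3.44% of 32851 windows hold it. Of the 41 genes 31 matched a window by symbol and 16 of the 31 hold the motif (51.6%), against 3.99% of all 27025 genes with a window. The median difference between the substrains was 0.66 in the 16 genes with the motif and 0.83 in the 15 without it. The J arrays lay above the NHsd arrays in 7 and 9 of them, and in 7.94% of all genes tested. Shown are the 200 bases before the start of the 4 genes that hold the motif there and differed by at least 1 log2, each on its own strand from 5′ to 3′ with the motif in capitals: Ifit1 at chr19:34640689-34640888 (plus strand), Ifit3 at chr19:34583329-34583528 (plus strand), Oas1a at chr5:120907526-120907725 (minus strand) and Bst2 at chr8:71537473-71537672 (minus strand).
Ifit1: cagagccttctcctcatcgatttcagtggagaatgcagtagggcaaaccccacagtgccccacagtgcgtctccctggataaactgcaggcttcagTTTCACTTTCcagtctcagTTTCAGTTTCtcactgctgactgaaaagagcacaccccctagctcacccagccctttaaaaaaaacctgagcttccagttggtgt
Ifit3: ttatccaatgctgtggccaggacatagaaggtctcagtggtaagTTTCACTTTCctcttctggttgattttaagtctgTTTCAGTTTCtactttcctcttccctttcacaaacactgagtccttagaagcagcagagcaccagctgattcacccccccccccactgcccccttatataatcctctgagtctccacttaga
Oas1a: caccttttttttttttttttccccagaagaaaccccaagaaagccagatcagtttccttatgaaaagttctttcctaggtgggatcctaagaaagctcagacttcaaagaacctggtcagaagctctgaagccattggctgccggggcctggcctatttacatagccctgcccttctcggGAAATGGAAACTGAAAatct
Bst2: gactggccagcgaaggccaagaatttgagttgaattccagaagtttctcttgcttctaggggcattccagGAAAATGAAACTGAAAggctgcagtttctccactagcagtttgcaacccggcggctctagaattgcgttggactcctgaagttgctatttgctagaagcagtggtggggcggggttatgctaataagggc

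Each of the 4 windows holds 2 matches, which are apart in Ifit1 and Ifit3 and overlap in Oas1a and Bst2. The first match begins 104 bases before the start in Ifit1, 156 in Ifit3, 20 in Oas1a and 130 in Bst2. After cerulein Ifit3, a partner of Ifit1, differed by 1.28 (SE 0.29, adjusted p = 0.157). Oas1a, which makes the second messenger that activates RNase L, differed by 1.12 (SE 0.28) and Bst2, which tethers budding virus to the cell surface, by 1.08 (SE 0.22, adjusted p = 0.0924). None of these 3 was called, though the J arrays lay above the NHsd arrays in each.

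Antigen processing genes that interferon also induces formed a list of their own. Of 11 tested MHC class I and immunoproteasome genes 3 were higher at an unadjusted p below 0.05 (6.46% of all genes) and 0 were called. The median was 0.22, and 0.21 without J cerulein replicate 1, where 2 were higher at that threshold. Psmb8, an immunoproteasome subunit, was at log2 7.81, 6.90 and 6.25 in J and 6.10, 5.81 and 6.33 in NHsd. Its groups overlapped, and the difference of 0.91 (SE 0.30) was 0.50 without J cerulein replicate 1.

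Folr2 and Cd209f, genes of myeloid cells, were called higher in J. Folr2, a folate receptor of tissue-resident macrophages, was at log2 5.87, 5.87 and 5.41 on the J cerulein arrays and at 4.89, 4.80 and 4.48 on the NHsd ones. The groups did not overlap and the difference was 0.99 (SE 0.16), or 1.99-fold (limma, adjusted p = 0.0326). Without J cerulein replicate 1 it was 0.92 (adjusted p = 0.0884). Cd209f, a C-type lectin related to DC-SIGN, was at 5.76, 5.24 and 4.89 in J and at 4.02, 3.84 and 3.84 in NHsd, with the NHsd mean at log2 3.90. The difference of 1.40 (SE 0.20, adjusted p = 0.0137) is inexact in size, since that mean lies under log2 4, and the gene stayed called without that array at 1.17 (adjusted p = 0.0205). On the saline arrays Cd209f lay between 3.57 and 3.84 and Folr2 between 3.36 and 3.42.

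Of 27 tested macrophage genes Folr2 alone was called and 22 had a positive difference, where 57.5% of all genes did. On the higher side 8 had an unadjusted p below 0.05 (6.46% of all genes). The list median was 0.33, and 0.37 without J cerulein replicate 1. In that fit 5 were higher at an unadjusted p below 0.05 (5.35% of all genes) and 0 were called. Fcgr1, the high-affinity IgG receptor, differed by 1.03 (SE 0.27), Ms4a6c by 0.81 (SE 0.19) and C1qb by 0.71 (SE 0.28), and none was called. The general markers Csf1r and Mpeg1 had differences of -0.19 (SE 0.35) and -0.26 (SE 0.29). In whole tissue, more cells of a type and more RNA per cell cannot be told apart. The macrophage list averaged log2 7.64, 7.94 and 7.42 on the J cerulein arrays and 7.20, 7.25 and 7.48 on the NHsd ones, so that J cerulein replicate 3 lay below NHsd cerulein replicate 3. The part of macrophage RNA in the interferon-stimulated differences was not tested.

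Chemokines gave large but uncertain differences. Ccl8, a ligand that draws monocytes, was at log2 10.18, 9.53 and 8.86 in J and 7.84, 7.87 and 8.13 in NHsd after cerulein. All J arrays lay above all NHsd arrays, and the difference of 1.58 (SE 0.49) was not called (adjusted p = 0.323). Ccl9 differed by 1.07 (SE 0.32) and the B cell attractant Cxcl13 by -1.34 (SE 0.40), the latter with -1.15 after saline. Of the 12 tested chemokines and cytokines 5 were higher and 1 lower at an unadjusted p below 0.05 (6.46% and 2.95% of all genes). The list median was 0.27, and 0.26 without J cerulein replicate 1, with 4 then higher and 1 lower. Genes of T and NK cells were mostly unmeasured, since 18 of 21 on the array lay under log2 4 on all 6 cerulein arrays. S100a8, a gene of neutrophils, varied within both groups, at 8.01, 4.46 and 7.49 in J and 5.0, 8.95 and 6.36 in NHsd.

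Genes that build scar matrix were low on the array that stood apart. Col1a1, a chain of the main fibrillar collagen, was at log2 4.37, 7.12 and 6.47 on the J cerulein arrays and 5.88, 6.56 and 6.87 on the NHsd ones. Col3a1 was at 11.27, 12.97 and 12.74 in J and 12.61, 12.28 and 12.81 in NHsd. For all 14 tested collagens J cerulein replicate 1 lay below both other J arrays, and the list mean was 6.22 on it against 8.21 and 7.84 on those. The NHsd cerulein arrays averaged 7.84 to 7.94 and the 6 saline arrays 5.54 to 5.87. Of the 14 collagens 0 were called in either direction. At an unadjusted p below 0.05 limma had 1 lower (2.95% of all genes) and 0 higher (6.46%). The median difference of the list was -0.51 with all arrays and 0.13 without J cerulein replicate 1, so that its sign depended on that array. Without J cerulein replicate 2 the median was -1.0 and 9 collagens were lower at an unadjusted p below 0.05. In that fit 562 of all 8505 genes were lower at this threshold.

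**Figure D3:**
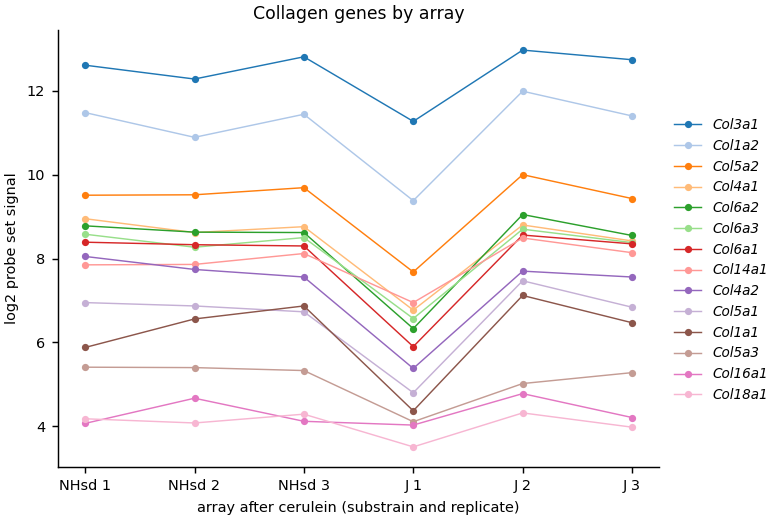
Log2 probe set signal (vertical axis) of the 14 tested collagen genes on each of the 6 arrays after cerulein (horizontal axis); a line joins the points of a gene for legibility and the arrays have no order. Every line dips at J replicate 1, where the list averages log2 6.22, while J replicates 2 and 3 (8.21 and 7.84) are near the NHsd arrays (7.84 to 7.94).

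The same array was low for 28 of 31 other matrix proteins, and it was the highest J array for 32 of 38 oxidative phosphorylation genes and 16 of 17 ribosomal protein genes. Other matrix proteins had a median difference of 0.05, with 4 of 31 higher at an unadjusted p below 0.05 (6.46% of all genes) and 0 lower. Without J cerulein replicate 1 the median was 0.45, and 10 were higher at that threshold (5.35% of all genes). Without J cerulein replicate 2 it was -0.31, with 3 higher and 4 lower (507 and 562 of all 8505 genes). Without J cerulein replicate 3 it was -0.13. The oxidative phosphorylation genes had a median of 0.16 with all arrays and 0.01 without J cerulein replicate 1. The part of this array's other differences in these lists was not tested.

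Some matrix genes were high in J on all 3 arrays. Pcolce2, which speeds the trimming of procollagen, was at log2 6.67, 6.82 and 6.51 in J and 5.12, 5.15 and 5.69 in NHsd after cerulein. The groups were well apart and the difference was 1.34 (SE 0.21), or 2.54-fold (limma, adjusted p = 0.0282), and again 1.34 without J cerulein replicate 1 (adjusted p = 0.0861). Sbspon, which encodes a secreted protein with somatomedin B and thrombospondin domains, was at 6.34, 5.61 and 5.82 in J and 3.98, 4.28 and 4.59 in NHsd. It was 1.64 higher (SE 0.23, adjusted p = 0.0137; 1.43 and 0.0561 without that array), and its second probe set differed by 1.16 (SE 0.17). Aspn, a small proteoglycan of fibroblasts, was at 6.15, 6.72 and 5.84 in J and 3.27, 3.55 and 5.59 in NHsd and was not called at a difference of 2.10 (SE 0.48, adjusted p = 0.157).

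Stellate cell and myofibroblast genes had a median of 0.28, and 0.27 without J cerulein replicate 1. In either case 4 of 14 were higher at an unadjusted p below 0.05 (6.46% and 5.35% of all genes), and 0 were called. Pi16, a marker of adventitial fibroblasts, differed by 0.96 (SE 0.22, adjusted p = 0.157) and the smooth muscle gene Tagln by 0.52 (SE 0.17). Acta2, the standard marker of activated stellate cells, lay at log2 6.76 to 6.85 in J and 6.23 to 6.62 in NHsd, a difference of 0.38 (SE 0.40).

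Ppy, the gene of the islet hormone pancreatic polypeptide, and Cltrn were called higher in J. Ppy was at log2 6.89, 5.77 and 6.01 on the J cerulein arrays and 4.59, 4.13 and 5.04 on the NHsd ones. J cerulein replicate 1 was the highest array, and the groups did not overlap. The difference was 1.63 (SE 0.29), or 3.10-fold (limma, adjusted p = 0.038), and 1.30 without that array (adjusted p = 0.0874). Cltrn, for collectrin, a membrane protein of beta cells and kidney that is not on the islet list, was at 8.20, 7.54 and 7.63 in J and 6.19, 6.44 and 6.84 in NHsd. It was 1.30 higher (SE 0.22, adjusted p = 0.0335), and 1.10 without J cerulein replicate 1 (adjusted p = 0.0874).

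Of 19 tested islet genes Ppy was the 1 called and 17 had a positive difference, where 57.5% of all genes did. On the higher side 11 had an unadjusted p below 0.05 (6.46% of all genes). The median was 0.57, and 0.64 without J cerulein replicate 1. In that fit 12 were higher at an unadjusted p below 0.05 (5.35% of all genes) and 0 were called. Gcg, the glucagon gene, was at log2 12.76, 12.87 and 12.99 in J and 11.76, 12.02 and 12.25 in NHsd, a difference of 0.86 (SE 0.21, adjusted p = 0.192). It differed by 0.79 after saline, where the list median was 0.09. Pyy differed by 0.82 (SE 0.20) and the thyroxine carrier Ttr by 0.77 (SE 0.22). The insulin gene Ins2 and the amylin gene Iapp had differences of 0.23 (SE 0.11) and 0.21 (SE 0.14). The list averaged 7.94 to 7.99 on the J cerulein arrays and 7.26 to 7.66 on the NHsd ones, so every J array lay above every NHsd array. How much islet tissue each sample held was not tested.

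A calcium-binding protein, a ubiquitin ligase adaptor and a ribosome assembly factor were also called higher. S100g, calbindin of absorptive epithelia, was at log2 5.90, 5.64 and 5.06 in J and 2.93, 4.41 and 2.94 in NHsd, and at 2.39 to 2.76 on all saline arrays. The difference of 2.11 (SE 0.34; limma, adjusted p = 0.0326) is inexact in size, since the NHsd mean of 3.42 lies under log2 4. Asb11, the ligase adaptor, was 1.14 higher (SE 0.20, adjusted p = 0.0369), with J arrays from 4.96 to 5.84 and NHsd arrays from 4.21 to 4.35. Wdr18, the assembly factor, named after its values were seen, was 1.04 higher (SE 0.18, adjusted p = 0.0369), but its other measured probe set differed by 0.17 (SE 0.23). Without J cerulein replicate 1 the adjusted p of these genes was 0.112, 0.0979 and 0.104. Asb11 and Wdr18 were not called with quantile normalization either (limma, adjusted p = 0.0575 and 0.0534). The same held with equal medians (0.0761 for each) and, for Wdr18, with the mean of its probe sets (0.253).

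The 14 genes called higher after cerulein had saline differences from -0.38 to 0.38, and 0 of them were called after saline. However, 8 of the 14 lay under log2 4 on all 6 saline arrays, Mmp7, Ifit1, Usp18, S100g, Sbspon, Cd209f and Folr2 among them, so a saline difference could not be measured for these. The interaction terms had an unadjusted p below 0.05 in all 14 (3.17% of all genes on the higher side), but they share the cerulein arrays on which the genes were chosen, and only that of Mmp7 was called. Of the 5 genes called lower, the saline differences ran from -1.09 to -4.19, and 4 of the 5 were also called after saline. The J saline means of Fetub, Iglv1 and Wdfy1 lay under log2 4, so the sizes for these are inexact. The adjusted p of the interaction terms of the 5 genes lay between 0.741 and 0.996 (limma). After saline limma called 5 genes in all (0.0588%). Saline and cerulein arrays are different mice, and their spike-ins differed. Poly-A spike-ins averaged log2 9.81 to 10.96 on the saline arrays and 7.13 to 8.67 on the cerulein arrays. Hybridization spike-ins averaged 8.81 to 10.01 on the saline arrays and 7.36 to 7.74 on the cerulein arrays. Across the 8505 genes the substrain differences after saline and after cerulein correlated at r = 0.08, and at 0.26 without J cerulein replicate 1; genes are not independent replicates.

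**Figure D4:**
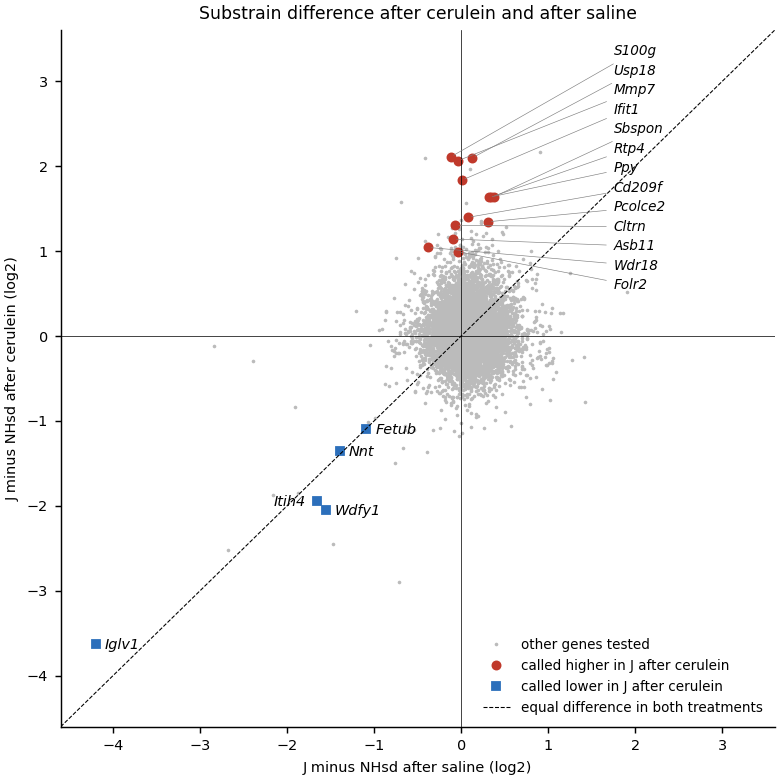
Difference J minus NHsd in log2 after saline (horizontal axis) and after cerulein (vertical axis) for the genes tested, each a mean of 3 arrays minus a mean of 3. Red circles are genes called higher and blue squares genes called lower in J after cerulein, grey points are other genes, and the dashed line marks equal differences. The red genes gather near 0 on the saline axis (-0.38 to 0.38), where 8 of the 14 lie under log2 4 on all saline arrays, and the blue genes lie near the dashed line.

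Nnt, the transhydrogenase gene that J mice carry with a deletion, served as a check of the labels. It was at log2 8.49, 8.74 and 8.78 on the J cerulein arrays and at 9.89, 10.08 and 10.09 on the NHsd ones. All J arrays lay below all NHsd arrays, as they did after saline. The gene was 1.35 lower in J (SE 0.14, 2.55-fold; limma, adjusted p = 0.00116), a second probe set gave 1.55 lower (SE 0.16), and the saline difference was -1.39 (adjusted p = 0.00244). Without J cerulein replicate 1 the difference was -1.26 (adjusted p = 0.00455).

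Wdfy1, an adaptor of Toll-like receptor signalling known to differ between C57BL/6 sublines, was at log2 4.12, 4.69 and 4.37 in J and 6.71, 6.18 and 6.43 in NHsd. It was 2.05 lower (SE 0.24, 4.14-fold; adjusted p = 0.00324), and limma also called it after saline at -1.56 (adjusted p = 0.0435). Of the other 9 tested genes on the list of reported J and N lineage differences, 0 were called. Mmrn1 was the nearest, at 4.14, 4.35 and 4.08 in J and 3.34, 3.21 and 3.86 in NHsd (difference 0.71, SE 0.20, adjusted p = 0.254; at least 1.14-fold against log2 4), and at an unadjusted p below 0.05 it was alone among the 9. Herc2, Cyfip2, Ide, Rptor, Vcpip1, Rab4b, Cwc22 and Mrpl39 had differences from -0.28 to 0.26.

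Itih4, a plasma protein of the inter-alpha-trypsin inhibitor family, was at log2 2.89, 2.74 and 2.72 on the J cerulein arrays and 5.36, 4.19 and 4.63 on the NHsd ones. All J arrays lay under log2 4, so it was at least 1.65-fold lower in J, log2 4 against the NHsd mean of 4.72 (measured J mean 2.78; limma, adjusted p = 0.0048, and 0.0205 without J cerulein replicate 1). After saline it was at 6.73 to 6.95 in J and 8.28 to 8.69 in NHsd, a difference of -1.66 (adjusted p = 0.0365). J lay below NHsd in either state. Fetub, which encodes the plasma protease inhibitor fetuin-B, was at 6.42, 6.16 and 6.33 in J and 7.69, 6.97 and 7.53 in NHsd. It was 1.10 lower (SE 0.18, adjusted p = 0.0328; -1.15 and 0.0759 without that array), and differed by -1.09 after saline (adjusted p = 0.0702), where all J arrays lay under log2 4.

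Among the genes called lower, Iglv1 had the largest difference. The probe set annotated Iglv1, a lambda light chain variable gene, was at log2 5.93, 4.17 and 6.40 in J and 8.60, 8.83 and 9.94 in NHsd. It was 3.63 lower (SE 0.57, 12.3-fold, limma, adjusted p = 0.0282), and differed by -3.84 without J cerulein replicate 1 (adjusted p = 0.0759). After saline it differed by -4.19 (adjusted p = 0.0331), a size that is inexact because the J saline mean of 3.28 lies under log2 4. A second Iglv1 probe set gave -3.05 (SE 0.48); such probe sets can bind related light chains. Ighm, the mu heavy chain, was at 8.45, 9.43 and 9.54 in J and 11.45, 11.18 and 12.36 in NHsd, and Jchain, which joins IgM and IgA units, at 8.90, 8.26 and 8.52 against 9.95, 10.28 and 11.05. Both were apart between the substrains yet not called, with differences of -2.52 (SE 0.60, adjusted p = 0.176) and -1.87 (SE 0.50, adjusted p = 0.242), and both differed likewise after saline, by -2.68 and -2.16.

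Igha, the alpha heavy chain, was under log2 4 on all J cerulein arrays and at log2 5.74, 5.61 and 8.08 in NHsd, at least 5.57-fold lower by its means and not called (adjusted p = 0.0781; 0.0424 with quantile normalization and 0.0337 with equal medians). Of 6 tested B and plasma cell genes 4 were lower at an unadjusted p below 0.05 (2.95% of all genes), with a median of -1.10. Sdc1, which epithelium also makes, was higher at that threshold (6.46% of all genes). The median was -0.90 without J cerulein replicate 1, with 3 lower and 1 higher. On the array 9 of 15 genes of this list, Cd79a, Cd79b and Cd22 among them, lay under log2 4 on all 6 cerulein arrays.

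The 20 tested acinar identity and secretion genes had a median of -0.21 with 0 called, and 3 had a positive difference. At an unadjusted p below 0.05, 3 were lower (2.95% of all genes) and 0 higher (6.46%). The median was -0.15 without J cerulein replicate 1, with 1 lower and 0 higher. Rbpjl, a subunit of the acinar transcription factor complex, was at log2 6.56, 7.58 and 7.18 in J and 8.04, 7.40 and 7.95 in NHsd. Its groups overlapped, with a difference of -0.69 (SE 0.25). Bhlha15, which sets up secretory granules, differed by -0.54 (SE 0.19) without overlap. After saline the list median was 0.15. Without NHsd cerulein replicate 1 it was -0.04 after cerulein, and without NHsd cerulein replicate 2 it was -0.37, so its size rested on single NHsd arrays.

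The 22 tested digestive enzyme and granule genes had a median of -0.07, and of -0.05 without J cerulein replicate 1. At an unadjusted p below 0.05, 3 were lower (2.95% of all genes) and 1 higher (6.46%), and 0 were called. With equal medians 7 were lower at that threshold (474 of all 8505 genes), and with quantile normalization 8 (470), each time with 1 higher. Gp2, the main protein of the zymogen granule membrane, was at log2 12.71, 12.59 and 13.06 in J and 13.75, 13.23 and 13.41 in NHsd, a difference of -0.68 (SE 0.14) that was not called (adjusted p = 0.0996; 0.00898 with quantile normalization and 0.0561 with equal medians). Spink1, the trypsin inhibitor of the gland, was at 14.37, 14.32 and 14.42 in J and 14.04, 13.92 and 14.19 in NHsd, a difference of 0.32 (SE 0.09, adjusted p = 0.275). After saline both genes differed by -0.01. Egf, which acinar cells make, was at 5.57, 6.15 and 6.34 in J and 7.58, 6.87 and 7.02 in NHsd, a difference of -1.14 (SE 0.22, adjusted p = 0.0781) against 0.02 after saline. Egf was called with quantile normalization (limma, adjusted p = 0.0324) and with equal medians (0.0337).

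The other genes next in order among the lower ones were Parm1 at -0.81 (SE 0.15, adjusted p = 0.0622), the endoplasmic reticulum exchange factor Sil1 at -0.64 (SE 0.13), the secreted hepatokine Fgl1 at -1.37 (SE 0.28) and the semaphorin and VEGF receptor Nrp2 at -1.10 (SE 0.25). On each the J arrays lay below the NHsd arrays, and none was called with or without J cerulein replicate 1. Other settings called some of them: Parm1 had an adjusted p of 0.00878 with quantile normalization and 0.0122 with equal medians, and Fgl1 one of 0.0497 with equal medians (limma). With array weights Parm1, Sil1, Fgl1 and Nrp2 had 0.00357, 0.0124, 0.0026 and 0.00898. Unfolded protein response genes had a median of -0.06. At an unadjusted p below 0.05, 5 of 35 were lower (2.95% of all genes) and 1 higher (6.46%). The median was 0.01 without J cerulein replicate 1, with 3 lower and 1 higher. Herpud1, of the pathway that degrades misfolded proteins, differed by -0.71 (SE 0.21) and the stress sensor Ern1 by -0.76 (SE 0.23), while the stress factor Ddit3 differed by 0.40 (SE 0.14).

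Of 11 tested genes of the Reg family and acute injury Itih4 was the 1 called, and the median was -0.46, or -0.68 without J cerulein replicate 1. The lectin gene Reg3a was at log2 12.91, 12.66 and 12.52 in J and 13.60, 13.25 and 13.73 in NHsd, a difference of -0.83 (SE 0.43) after -1.91 in saline. Gal, the neuropeptide galanin, was at 7.49, 6.84 and 7.44 in J and 9.14, 8.11 and 7.78 in NHsd, a difference of -1.09 (SE 0.28, adjusted p = 0.226). In both genes the J arrays lay below the NHsd arrays. The most abundant member, Reg1, differed by 0.09 (SE 0.08).

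Proliferation genes had a median of 0.42, with 12 of 30 higher at an unadjusted p below 0.05 (6.46% of all genes) and 0 called. Mki67, present in all dividing cells, was at log2 6.60, 7.68 and 7.13 in J and 5.35, 5.0 and 7.24 in NHsd. NHsd cerulein replicate 3 again lay with the J arrays, and the difference was 1.27 (SE 0.50, adjusted p = 0.458). Nusap1, a spindle protein, differed by 0.93 (SE 0.23, adjusted p = 0.187). In this list NHsd cerulein replicate 3 was the highest NHsd array for 22 of 30 genes. The median without J cerulein replicate 1 was 0.34, with 8 higher at an unadjusted p below 0.05 (5.35% of all genes). Phlda3, a p53 target that restrains Akt, was at 6.19, 5.23 and 5.34 in J and 4.40, 4.54 and 4.39 in NHsd; it differed by 1.14 (SE 0.21; limma, adjusted p = 0.0584), and was called at 0.84 without J cerulein replicate 1 (adjusted p = 0.0449).

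**Figure D5:**
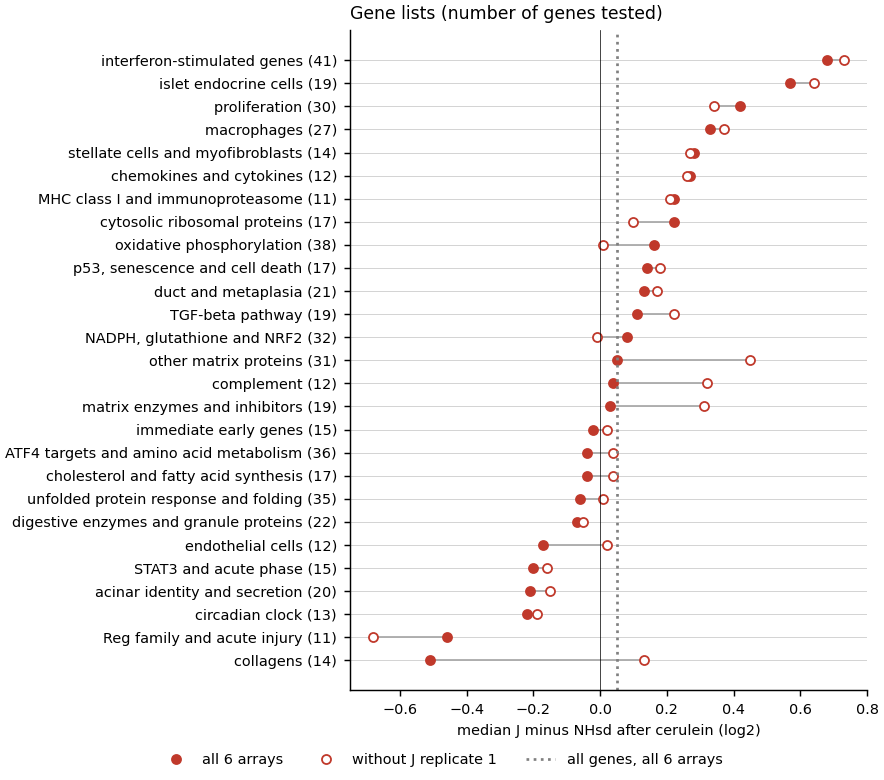
Median difference J minus NHsd after cerulein in log2 (horizontal axis) of gene lists with at least 10 tested genes, with the number tested in brackets. The list of J and N lineage genes is left out. Filled circles use all 6 arrays, open circles leave out J replicate 1, and the dotted line is the median of all genes (0.05). Interferon-stimulated genes (0.68 and 0.73) and islet genes (0.57 and 0.64) are rightmost under both, while collagens move from -0.51 to 0.13.

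Xist, the transcript that silences an X chromosome in females, was at log2 9.76 on J cerulein replicate 1, at 11.15 to 11.50 on the other 5 cerulein arrays and at 9.52 to 10.34 on the saline arrays. The Y-linked genes Eif2s3y, Kdm5d, Usp9y and Uty lay under log2 4 on all 6 cerulein arrays.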

How the data were processed

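RNA of 12 pancreata, 3 mice in each of 4 groups, was labelled and hybridised to 1 array each. The deposited values are log2 signals of 45101 probe sets per array, made by the authors with GCRMA in Partek, per the submitters' processing notes, which name no versions. GCRMA normalizes the arrays to one another and subtracts modelled nonspecific binding, so low signals gather near a floor. The number of arrays limits the precision.

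Probe sets above log2 4 on at least 3 of the 12 arrays were kept (14296), and a gene was measured by its brightest kept probe set with 1 gene symbol; 34958 probe sets have 1 symbol, 932 several and 9211 none. This left 8505 of 18194 genes. Limma 3.58.1 in R 4.3.3 fitted 4 group means with an intensity trend (residual df 8), and p-values were adjusted by Benjamini-Hochberg over all genes tested; called means an adjusted p below 0.05. Where all arrays of a group lie under log2 4, a fold is a lower bound against log2 4. On simulated data with 8505 genes the cerulein comparison recovered 22.4%, 50.7% and 95.5% of genes changed 1.5-, 2- and 4-fold, with 6 false calls. The simulation used independent normal noise around a common mean per gene. It held no array that stood apart and no floor, so these shares need not hold for the real arrays.

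The members and the 40 gene lists (629 of 1048 entries tested) were chosen with earlier results of these data known. The rule for named genes took, among called genes with arrays that do not overlap, the 12 that were most increased and the 12 most decreased in J, then up to 3 called members per list, and all tested lineage and sex-specific genes. Where under 12 were called, the genes next by unadjusted p follow and are named as not called. Phlda3, Wdr18 and other list members were named after their values were seen. 1 called gene is not reported here. Alternatives were other scalings, filters, moderation, array weights, other treatment of a gene's probe sets, fewer groups in the fit, a replicate block and leaving out each array. Tables were built in pandas 2.3.3 (Python 3.11.15) with numpy 2.4.6, and plots in matplotlib 3.10.9.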

Additional observations from a re-analysis of the deposited data

Results flagged for a closer look

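For Mmp7 the substrain difference after cerulein was 2.10 log2 larger than that after saline by the test of the difference itself (limma, interaction term, SE 0.28, adjusted p = 0.0492), with all 3 J cerulein arrays above all 3 NHsd cerulein arrays and every saline array between log2 3.70 and 3.89, under log2 4 and near the floor, so that its size is inexact.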

How the results depend on the processing

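All counts here are limma's at an adjusted p below 0.05. Higher in J after cerulein were 14 genes, and 8 with no filter on low values, 7 with the filter at log2 6, 50 with array weights, 0 with only the cerulein arrays in the fit (410 at an unadjusted p below 0.05), and 2 to 82 when 1 array was left out. Lower in J were 5, and 10 with quantile normalization or equal medians, 2 with no filter, 40 with array weights, 12 with each probe set tested, 0 with only the cerulein arrays (151 unadjusted), and 3 to 7 when 1 array was left out. The interaction called 1 gene, and 2 with quantile normalization or no intensity trend, 15 with no filter, 3 with array weights, 0 with equal medians (688 unadjusted), the filter at log2 6 (335) or each probe set (929), and 0 to 5 when 1 array was left out. After saline 5 genes were called, and 37 with no filter, 9 with array weights, 8 with each probe set, 0 with only the saline arrays (723 unadjusted), and 1 to 9 when 1 array was left out. The causes were not tested. Of the 19 genes called after cerulein, 19 stayed called with array weights and 17 with equal medians. Fewer stayed called elsewhere: 4 with no filter and 7 with the replicate block. Leaving out J cerulein replicate 1 kept 6, and leaving out NHsd cerulein replicate 1 kept 5. With only the cerulein arrays in the fit all 19 lost their call.

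With the replicate number as a block, 3 genes were higher and 4 lower after cerulein. After saline 2 were called, and 1 for the interaction. Deviations of same-numbered J and NHsd cerulein arrays correlated at 0.13, -0.08 and 0.02. Over all pairs of groups the correlations ran from -0.16 to 0.34. Whether the numbers pair the mice cannot be told from 3 arrays per group.

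Among the genes named by the rule, signs turned in these lineage genes, which were not called: Cyfip2 (0.03), Rptor (0.01) and Ide (0.08) with array weights, Ide with the mean of probe sets (0.06) and without J cerulein replicate 1 (0.29; without each other array the lowest was -0.40), Vcpip1 with equal medians (-0.03) and after cerulein without J replicate 2 (-0.03) or NHsd replicate 2 (-0.09), and Rab4b with quantile normalization (-0.03), equal medians (-0.05), array weights (-0.14) and without J cerulein replicate 1 (-0.18).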

Other observations

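Of the 68 genes called higher in J only without NHsd cerulein replicate 3, that array lay at or above the lowest J array in 42, and 14 of the 68 have symbols that start with Zfp, the prefix of zinc finger protein genes, of which 140 were tested. The choice of this symbol group was made after the values were seen.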
